A study of Mus musculus with 19 samples.

Results

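The heat shock proteins, J-proteins and chaperonins of single mouse blastocysts were measured in 9 embryos labelled Padi6-mutant and 10 labelled Control. The genes were chosen by name, with earlier results of these data known. The symbols were made of Hspa, Hspb, Hspd, Hspe, Hsph or Hsp90 with what follows, Dnaja, Dnajb or Dnajc with a number, or Cct with a number from 2 to 8. Of the 14173 listed genes 74 matched, and 4 were left out: the pseudogenes Dnajc19-ps, Hspd1-ps3 and Dnajb6-ps, and Hspbap1, which encodes no chaperone. The remaining 70 genes were sorted by hand, from textbook knowledge, into 43 chaperones of the cytosol and nucleus, 13 of the endoplasmic reticulum (ER) and 10 of the mitochondria, and 4 were assigned to no compartment (Dnajc22, Dnajc25 and Dnajc27 among them). Of the genes of these families known by name, 14 were not among the listed genes and are not analysed here, the stress-inducible Hsp70 genes Hspa1a and Hspa1b among them.

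Chaperones bind proteins that are not yet folded, or no longer folded, and release them in cycles driven by ATP. Hsp70 proteins take up such chains with the help of J-proteins, which start ATP hydrolysis, and of exchange factors, which let the chain go, while Hsp90 acts later on partly folded clients and chaperonins enclose a chain in a barrel. Cytosol, ER and mitochondria each have their own Hsp70 and Hsp90 (Hspa8, Hspa5 and Hspa9; Hsp90aa1 with Hsp90ab1, Hsp90b1 and Trap1), and the cytosol and the mitochondria have a chaperonin of their own, CCT and Hsp60. In mouse embryos Hsp70 genes are among the earliest to be transcribed when the embryonic genome becomes active.

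Padi6 is expressed in oocytes, where its product is part of the subcortical maternal complex. Per the series' design text, the mutant embryos came from oocytes with the Padi6 allele P620A, so the genotype that separates the groups is that of the oocyte. The labels name the second group only as Control, and give no strain, age, sire, litter, day or batch for either group, so each library was taken as 1 independent embryo. The p-values measure the spread between these embryos and would come out too small where litter mates were sampled together. Polyadenylated RNA of each embryo was separated from its DNA (the G&T protocol), copied by template switching from oligo-dT, amplified by 17 cycles of PCR and read from both ends. All values here are levels on the scale log2(scaled count + 1), where the authors scaled each library to a common upper quartile, and a fold change is the difference of the group means on that scale, Padi6-mutant minus Control.

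The transcript of Padi6 lay between 2.00 and 9.27 in Padi6-mutant and between 3.81 and 9.24 in Control embryos, which does not check the labels, since the allele changes the protein. Padi6-mutant libraries listed 113 to 596 genes at 0 and Control libraries 30 to 247; Padi6-mutant 6, 8, 9 and 10 each listed over 400 at 0, and calls that were lost without these 4 libraries are given as such. The 70 chaperone genes took 2.27 to 2.84% of all scaled counts in Control and 2.48 to 3.33% in Padi6-mutant libraries. Among markers of the blastocyst's cells, 0 of 6 trophectoderm genes passed in limma (0 of 6 also at an unadjusted p under 0.05), Pou5f1 of 5 inner cell mass genes fell, and Gata6, Sox17 and Pdgfra of 4 primitive endoderm genes fell. Without the 4 libraries Pou5f1 (-0.96, adjusted p = 0.0318) and Pdgfra (-0.97, adjusted p = 0.0374) passed, whereas Sox17 (-1.52, adjusted p = 0.402) and Gata6 (-0.62, adjusted p = 0.0827) did not. With the number of detected genes per library as a covariate in limma the adjusted p was 0.0710 for Pou5f1, 0.159 for Gata6, 0.690 for Sox17 and 0.620 for Pdgfra, and with each library's trend on transcript length and GC content removed Pou5f1 alone of the 4 passed. Sox17 kept its call only when Control 5, 6 or 9 or Padi6-mutant 2, 4, 5, 7 or 8 was the library left out (adjusted p otherwise up to 0.0781), and Pdgfra lost its own without Padi6-mutant 9 (adjusted p = 0.0512). The summed level of the primitive endoderm list was 13.06 to 13.71 in Padi6-mutant and 13.16 to 15.22 in Control embryos, that of the inner cell mass list 13.53 to 15.08 and 14.52 to 15.76, and Sox2 stood at 0 in 1 and Gata4 at 0 in 2 Padi6-mutant embryos. No marker of cumulus and granulosa cells (8 genes) or of oocytes (6 genes) was among the listed genes. In whole embryos a lower share of a cell type and less RNA per cell cannot be told apart, and the part of these markers in the results that follow was not tested.

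Chaperone genes differed in both directions between the groups. With limma, at an adjusted p under 0.05 (Benjamini-Hochberg, all genes), 13 of the 70 rose and 11 fell in Padi6-mutant embryos, while 46 did not pass. That is 34.3% of the chaperones, beside 26.6% of all listed genes (14.6% higher and 12% lower), and their median log2 fold change was -0.0046 beside -0.10 over all genes. With limma on the genes above the median level alone, 19 of 47 chaperones (40.4%) passed. Of all 7086 such genes, 1242 were higher and 1332 lower. Mitochondrial chaperones had 4 of 10 higher and 2 lower, with a median of 0.83. Chaperones of the cytosol and nucleus had 7 of 43 higher and 6 lower, with a median of -0.0038. In the ER 0 of 13 rose and 3 fell by limma, with a median of -0.076 (6 of the 13 had an unadjusted p under 0.05). The plot of fold changes by compartment shows this spread.

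**Figure D1:**
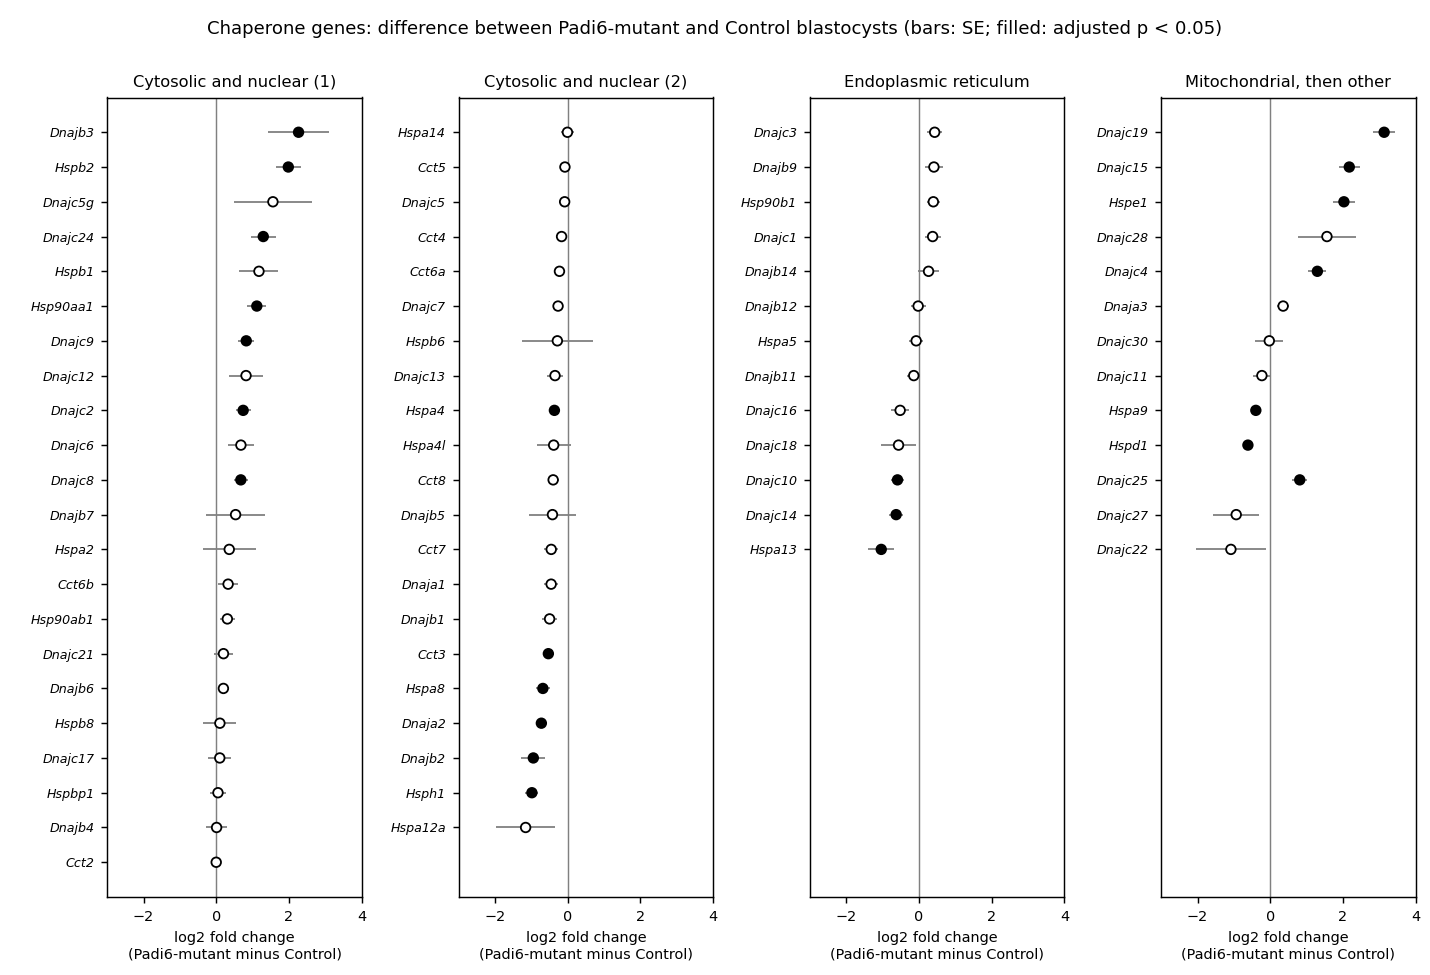
Log2 fold change (Padi6-mutant minus Control, x axis) of the chaperone genes named here (y axis), by compartment and sorted within it. Points are limma estimates, bars are standard errors, and filled points have an adjusted p under 0.05; Dnajc25, Dnajc27 and Dnajc22 at the foot of the last panel have no compartment. The mitochondrial panel runs from 3.13 (Dnajc19) to -0.61 (Hspd1), whereas the ER panel stays between 0.43 and -1.04.

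How many genes passed depended on the libraries and on the scaling. Without the 4 libraries 11 chaperones were higher and 5 lower, all of them among those first called, where 11.9% of all genes were higher and 6.64% lower. With quantile normalization, a different scaling, 12 were higher and 18 lower in place of 13 and 11, where 14.2% of all genes were higher and 13.7% lower, the added falls being Cct4, Cct5, Cct6a, Cct7, Cct8, Dnaja1 and Dnajc7. With detected genes per library as a covariate, 6 remained higher (Hspe1, Dnajc19, Dnajc15, Dnajc4, Hspb2 and Dnajc25) and 3 lower (Hsph1, Dnaja2 and Hspd1), where 9.23% and 3.52% of all genes passed. Leaving out Control 1 or Control 3 brought the count of lower chaperones from 11 to 7. Over all genes the lower count went from 1697 to 1224 without Control 1 and to 1287 without Control 3.

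Control 5 and Control 9 stood nearest to the Padi6-mutant embryos in many of these genes. In 9 of the 13 genes that rose they were the highest pair of Control embryos, as in Hspe1 (13.37 and 13.69), Dnajc19 (11.88 and 12.29), Dnajc15 (12.13 and 12.05) and Hsp90aa1 (19.21 and 18.90). In 9 of the 11 genes that fell, 1 of them was the lowest Control embryo: Control 5 was lowest in Hspd1 (14.45) and Control 9 in Hsph1 (13.46). They listed 130 and 247 genes at 0, the second of these the most among Control libraries, and its part in these levels was not tested. Over all 14173 genes limma called 2068 higher and 1697 lower with every library. Without Control 5 it called 2242 and 1910, and without Control 9 2262 and 2026, whereas leaving out any other single library lowered both counts. How often Control 5 or 9 stood nearest over all called genes was not tested, so the chaperone counts have no such share beside them.

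The largest rise of the 70 genes was that of a mitochondrial gene, Dnajc19, and the genes of both parts of the mitochondrial chaperonin changed in opposite directions. Hspd1 encodes Hsp60, the chaperonin barrel of the mitochondrial matrix, and Hspe1 encodes Hsp10, its lid. Hspe1 was at 11.31 to 13.69 (median 12.09) in Control embryos and at 13.21 to 15.07 (median 14.50) in Padi6-mutant embryos. It rose 4.07-fold (log2 fold change 2.03, SE 0.30, adjusted p = 2.38e-05), with 7 of 9 Padi6-mutant embryos above the highest Control embryo and Padi6-mutant 9 and 10 below it. Hspd1 was at 14.45 to 15.12 (median 14.86) in Control and at 13.85 to 14.50 (median 14.17) in Padi6-mutant embryos. It fell (log2 fold change -0.61, SE 0.13, adjusted p = 0.00139), with 7 of 9 Padi6-mutant embryos below the lowest Control embryo, so the ranges of both genes overlapped only at their edges.

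Set against each other within an embryo, the pair did not overlap between the groups. The Hspd1 level minus the Hspe1 level was 0.94 to 3.52 (median 2.74) in Control and -0.81 to 0.91 (median -0.094) in Padi6-mutant embryos. The mean difference fell from 2.61 ± 0.94 (SD, n = 10) to -0.025 ± 0.59 (SD, n = 9), a change of -2.64, with an exact two-sided permutation p over all 92378 splits of 5.41e-05 (adjusted p = 3.79e-04 over 7 such pairs). Any factor that acts on a whole library cancels in this difference, but a factor that depends on the transcript does not, and the Hspe1 transcript (774 nt) is shorter than that of Hspd1 (2423 nt). Once a trend of each library on transcript length and GC content was removed, Hspe1 was still higher (1.01, limma adjusted p = 3.92e-04) and Hspd1 lower (-0.56, adjusted p = 0.00136).

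**Figure D2:**
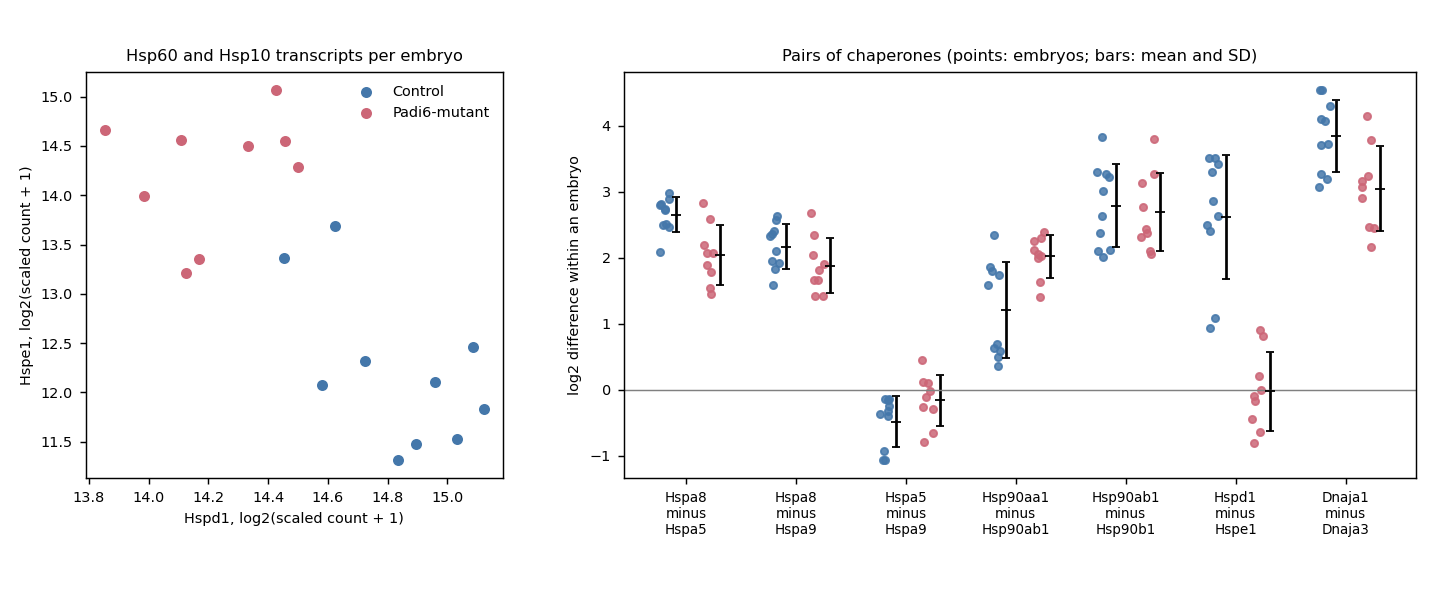
Left, the level of Hspe1 (y axis) against that of Hspd1 (x axis) in each embryo, both as log2(scaled count + 1). Right, the log2 difference within an embryo (y axis) for 7 pairs of chaperones (x axis), with points for embryos and bars for the mean and SD of each group; the Hspd1 minus Hspe1 difference is the only one of the 7 in which the 10 Control and the 9 Padi6-mutant embryos do not overlap.

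The sequence between the 2 genes is shown because they are transcribed away from each other from 1 shared stretch. It is the 215 bases between the start sites at 55087932 (Hspd1) and 55088148 (Hspe1), on the strand of Hspe1, from RefSeq windows on GRCm38.p6, an older build than the GRCm39 named in the submitters' processing notes, and capitals mark heat shock element letters.
Hspd1-Hspe1, chr1:55087933-55088147, + strand: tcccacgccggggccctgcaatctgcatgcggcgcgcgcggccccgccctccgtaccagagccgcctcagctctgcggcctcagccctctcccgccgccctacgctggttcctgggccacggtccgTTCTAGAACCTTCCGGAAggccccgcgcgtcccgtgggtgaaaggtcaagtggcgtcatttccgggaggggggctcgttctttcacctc
The heat shock element was searched as TTCNNGAA or GAANNTTC, the core bound by heat shock factors; each reads the same on both strands, and the 2 forms can overlap. The run in capitals holds TTCTAGAA at -89 to -82 from the Hspe1 start site, GAACCTTC at -84 to -77 and TTCCGGAA at -79 to -72, each overlapping the next. RefSeq lists another Hspd1 start site at 55088243, inside Hspe1, and the exons of the 2 genes overlap by 112 bases on opposite strands in GENCODE release M 21. Whether reads were counted by strand is not given in the sources used here, so reads from that overlap cannot be told apart.

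The other mitochondrial genes among the 70 that rose encode J-proteins. Dnajc19 encodes a J-protein of the inner membrane that works with the motor pulling proteins into the matrix. It was at 9.27 to 12.29 (median 10.19) in Control and at 13.19 to 13.87 (median 13.62) in Padi6-mutant embryos, so every Padi6-mutant embryo lay above every Control embryo. It rose 8.77-fold (log2 fold change 3.13, SE 0.30, adjusted p = 1.55e-07), the largest difference of the 70 genes. Dnajc15, a J-protein of the same family at the same membrane, was at 9.61 to 12.13 (median 10.46) and at 12.33 to 13.36 (median 12.97), again with no overlap. It rose 4.51-fold (log2 fold change 2.17, SE 0.29, adjusted p = 7.69e-06). Of all 14173 genes 419 (2.96%) had groups that did not overlap, and these 2 were the only ones among the 70. Dnajc4 was at 7.77 to 9.08 (median 8.74) in Control and at 8.51 to 10.43 (median 10.10) in Padi6-mutant embryos and rose (log2 fold change 1.30, SE 0.25, adjusted p = 4.86e-04), with all but Padi6-mutant 6 above the highest Control embryo.

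Dnajc19 and Dnajc15 differ in transcript length, which matters for how their rises read beside those of other genes. The Dnajc19 transcript used is short (659 nt, with coding transcripts from 551 to 2499 nt). Its rise was 1.75 with the length and GC trend removed (limma adjusted p = 8.49e-08). The Dnajc15 transcript is 6193 nt, and its rise was 2.27 with the trend removed (adjusted p = 7.51e-06), beside a median of -0.083 after the same step for all genes of 4000 nt and more. Dnajc4 (840 nt) had 0.58 after the same step and no longer passed (adjusted p = 0.0574). Dnajc19 has a pseudogene, Dnajc19-ps, whose counts were also higher without overlap (3.10, adjusted p = 1.19e-04), so reads may be shared between them, and its exons overlap those of Fxr1 by 178 bases on the opposite strand. The 250 bases before the start site of each of these J-protein genes (RefSeq, GRCm38.p6, strand of the gene) are given because the genes had the largest rises without overlap, and neither holds a heat shock element or an ER stress element as spelled here.
Dnajc19, chr3:34081355-34081604, - strand: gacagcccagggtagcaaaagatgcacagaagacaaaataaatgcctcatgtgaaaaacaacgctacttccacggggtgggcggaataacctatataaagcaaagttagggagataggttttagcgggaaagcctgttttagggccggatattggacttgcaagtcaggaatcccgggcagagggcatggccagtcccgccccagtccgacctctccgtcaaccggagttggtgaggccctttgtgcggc
Dnajc15, chr14:77874918-77875167, - strand: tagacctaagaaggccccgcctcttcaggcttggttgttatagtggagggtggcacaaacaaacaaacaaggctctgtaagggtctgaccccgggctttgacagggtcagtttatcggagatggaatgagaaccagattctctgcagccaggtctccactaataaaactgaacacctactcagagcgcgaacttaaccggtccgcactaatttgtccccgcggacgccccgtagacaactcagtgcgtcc

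The matrix Hsp70 and its J-protein moved less. Hspa9 encodes mortalin, the Hsp70 that pulls proteins into the matrix and folds them there. It was at 14.46 to 15.33 (median 14.94) in Control and at 14.23 to 14.76 (median 14.55) in Padi6-mutant embryos and fell (log2 fold change -0.40, SE 0.13, adjusted p = 0.0325), with all 9 Padi6-mutant embryos below the Control median. That call was lost when Control 1, 2, 3, 4 or 8 or Padi6-mutant 2 or 9 was left out (limma adjusted p up to 0.0637), without the 4 libraries (-0.40, adjusted p = 0.107) and after the length and GC step (-0.33, adjusted p = 0.0556). Dnaja3, its J-protein in the matrix, was at 10.93 to 12.23 (median 11.57) and at 11.72 to 12.33 (median 11.88) and did not pass (log2 fold change 0.35, SE 0.16, adjusted p = 0.106). It passed without Control 3 (adjusted p = 0.0497) and with the length and GC trend removed (0.55, adjusted p = 0.00544). Among 7 mitochondrial partner genes fixed by name, 3 rose and 1 fell, beside 14.6% and 12% of all genes. In limma with the length and GC trend removed 2 rose and 0 fell (4 with an unadjusted p under 0.05), and with detected genes as a covariate 1 rose and 0 fell (3). Those that rose on the deposited values were Grpel1, the exchange factor of Hspa9 (log2 fold change 0.91, SE 0.23, adjusted p = 0.00590), Hscb, a J-protein of iron-sulfur cluster assembly (log2 fold change 1.86, SE 0.31, adjusted p = 1.25e-04) and Clpp, a matrix protease (log2 fold change 0.98, SE 0.26, adjusted p = 0.00733), which no longer passed with the trend removed (0.48, adjusted p = 0.0704). The gene that fell, named after its values were seen, was Clpb, a mitochondrial disaggregase (log2 fold change -0.81, SE 0.29, adjusted p = 0.0422), a call lost without Control 1, 2, 3, 6, 7 or 10 or Padi6-mutant 2, 4, 6, 7, 8 or 9 (adjusted p up to 0.0833), without the 4 libraries (-0.67, adjusted p = 0.213) and with the trend removed (-0.50, adjusted p = 0.183).

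**Figure D3:**
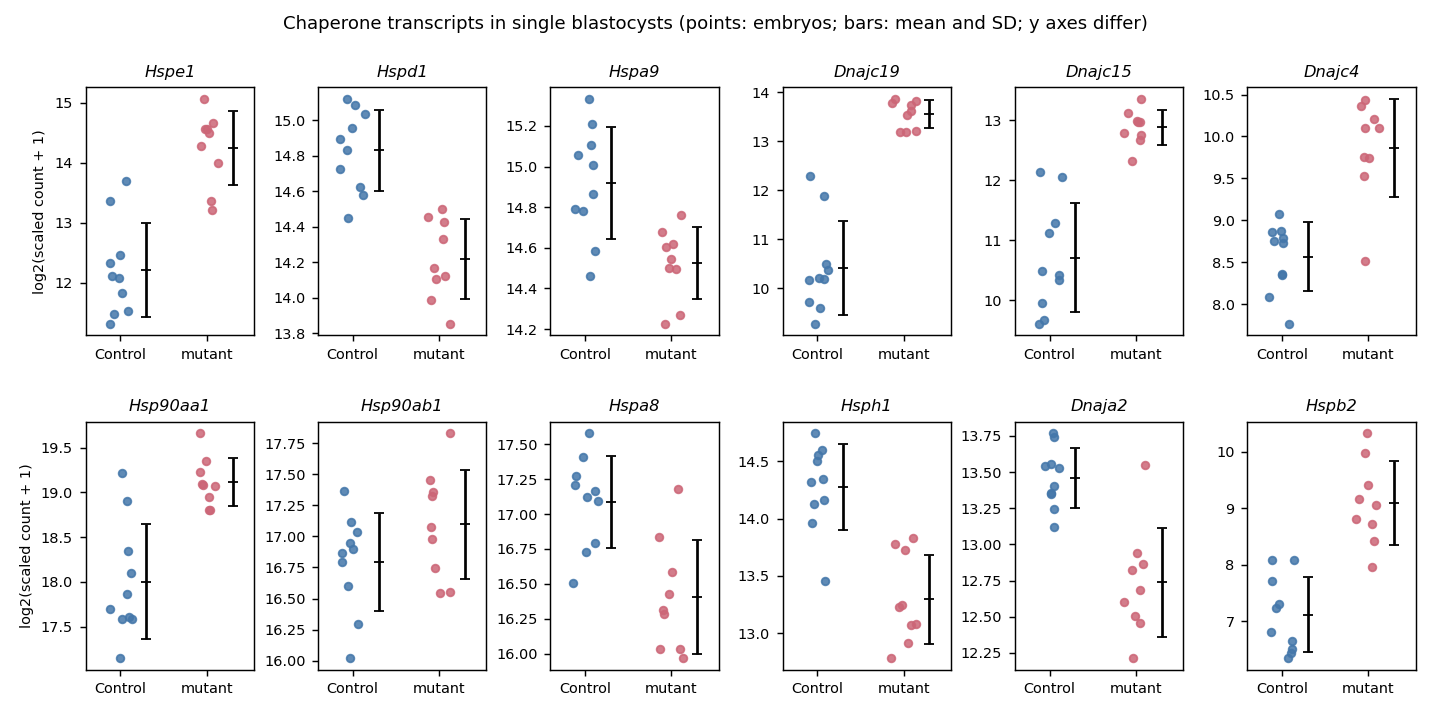
Level of 12 chaperone genes in each embryo, as log2(scaled count + 1) on y axes that differ between panels, with points for the 10 Control and the 9 Padi6-mutant embryos and bars for mean and SD. Dnajc19 and Dnajc15 show no overlap, Hspe1 and Hspb2 overlap at the edges, and Hsp90ab1 overlaps over most of its range.

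In the cytosol the 2 Hsp90 genes differed from each other. Hsp90aa1 encodes the form of Hsp90 that stress induces and Hsp90ab1 the constitutive one. Hsp90aa1 was at 17.14 to 19.21 (median 17.78) in Control and at 18.80 to 19.66 (median 19.09) in Padi6-mutant embryos. It rose 2.16-fold (log2 fold change 1.11, SE 0.26, adjusted p = 0.00262), with all 9 Padi6-mutant embryos above the Control median and 3 above the highest Control embryo. Hsp90ab1 was at 16.02 to 17.36 (median 16.88) and at 16.55 to 17.83 (median 17.08), with groups that overlapped over most of their range, and did not pass (log2 fold change 0.30, SE 0.21, adjusted p = 0.288). It was -0.098 with quantile normalization and 0.50 with the length and GC trend removed, where it passed (adjusted p = 0.0449). Within embryos, the Hsp90aa1 level exceeded that of Hsp90ab1 by 1.21 ± 0.73 in Control (SD, n = 10) and 2.02 ± 0.32 in Padi6-mutant embryos (SD, n = 9), a difference of 0.81 (exact permutation, adjusted p = 0.0180 over 7 pairs). That difference was 0.61 without the 4 libraries and did not pass (adjusted p = 0.173).

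Per kilobase of transcript, these were the most abundant of the 70 genes. On the scale log2(scaled count per kb) the Control medians were 16.27 for Hsp90aa1, 15.88 for Hspa8 and 15.55 for Hsp90ab1, and all 8 CCT genes but Cct6b lay between 13.35 and 14.28. In Padi6-mutant embryos the medians were 17.57 for Hsp90aa1, 15.74 for Hsp90ab1 and 15.05 for Hspa8, so Hspa8 and Hsp90ab1 changed places. These levels rest on 1 transcript length for each gene and are a description.

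The Hsp70 genes and their exchange factors of the Hsp110 type gave calls in 1 direction. Of these 10 genes over all compartments, 5 fell and 0 rose by limma (5 with an unadjusted p under 0.05), with a median of -0.39, beside 12% of all genes lower. With the length and GC trend removed 3 fell, beside 10.2% of all genes, without the 4 libraries 2 (6.64%), with the replicate number as a block 2 (7.06%) and with detected genes as a covariate 1 (3.52%). Hspa8 encodes Hsc70, the Hsp70 that the cytosol always holds. It was at 16.50 to 17.58 (median 17.14) in Control and at 15.96 to 17.18 (median 16.31) in Padi6-mutant embryos and fell (log2 fold change -0.68, SE 0.19, adjusted p = 0.00998), with 6 of 9 Padi6-mutant embryos below the lowest Control embryo. It was -0.67 without the 4 libraries (adjusted p = 0.0505). Hsph1, an exchange factor that heat induces, was at 13.46 to 14.75 (median 14.33) and at 12.78 to 13.83 (median 13.23). It fell (log2 fold change -0.98, SE 0.18, adjusted p = 2.58e-04), with 6 of 9 below the lowest Control embryo, and fell as well without the 4 libraries (-0.81, adjusted p = 0.0140). Hspa4, an exchange factor of the same kind, was at 13.19 to 13.99 (median 13.79) and at 13.05 to 13.77 (median 13.31) and passed narrowly (log2 fold change -0.36, SE 0.13, adjusted p = 0.0433). That call was lost when any library other than Control 5 or 9 or Padi6-mutant 2, 5 or 6 was left out (adjusted p up to 0.0813), without the 4 libraries (-0.37, adjusted p = 0.117) and with the length and GC trend removed (-0.24, adjusted p = 0.224).

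Hsph1 also has a heat shock element close to its start site. The 250 bases before the start site farther upstream (RefSeq lists 2) are shown for comparison with the Hspd1-Hspe1 stretch, and the capitals mark TTCTCGAA at -33 to -26.
Hsph1, chr5:149636337-149636586, - strand: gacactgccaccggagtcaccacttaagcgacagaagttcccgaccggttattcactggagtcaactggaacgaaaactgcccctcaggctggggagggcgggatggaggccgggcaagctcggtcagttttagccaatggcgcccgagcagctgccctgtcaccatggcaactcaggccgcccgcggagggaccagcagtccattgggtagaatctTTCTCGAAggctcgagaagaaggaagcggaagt
RefSeq windows were found for 55 of the 70 genes, and none for Hspa8, Hsp90aa1, Hsp90ab1 or Hspb2. In the 250 bases before a start site, 12 of the 55 (21.8%) held TTCNNGAA or GAANNTTC, beside 12.2% of 9575 listed genes with a window. They are Cct2, Cct5, Dnaja1, Dnajb4, Dnajb6, Dnajc10, Dnajc27, Hspb1, Hspb6, Hspd1, Hspe1 and Hsph1. Hspd1 and Hspe1 are counted apart, although both hold the stretch shown above. Of the 12, Hspe1 rose, Hspd1, Hsph1 and Dnajc10 fell and 8 did not pass. Of all 70 chaperones 34.3% passed, and of all listed genes 26.6%. Hsf1, a heat shock factor, fell in limma (log2 fold change -0.86, SE 0.20, adjusted p = 0.00278). With detected genes as a covariate it did not pass (-0.65, adjusted p = 0.0772). Hsf2, another heat shock factor, did not pass (log2 fold change -0.14, SE 0.22, adjusted p = 0.677). Hsbp1, which binds Hsf1, rose (log2 fold change 1.21, SE 0.22, adjusted p = 3.42e-04) and was at -0.11 with the length and GC trend removed (adjusted p = 0.506).

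Class A and B J-proteins start the Hsp70 cycle. Over all compartments 0 of 3 class A genes rose and 1 fell by limma (3 with an unadjusted p under 0.05), and 1 of 11 class B genes rose and 1 fell, beside 14.6% of all genes higher and 12% lower. In the cytosol Dnaja2 was at 13.12 to 13.77 (median 13.47) in Control and at 12.21 to 13.55 (median 12.69) in Padi6-mutant embryos and fell (log2 fold change -0.72, SE 0.15, adjusted p = 0.00105), with 8 of 9 below the lowest Control embryo. Dnaja1 was at 15.05 to 15.70 (median 15.45) and at 14.29 to 15.89 (median 14.95) and did not pass (log2 fold change -0.45, SE 0.19, adjusted p = 0.0792), nor did the heat-induced Dnajb1, at 11.24 to 12.18 (median 11.68) and at 10.19 to 11.83 (median 11.07) (log2 fold change -0.50, SE 0.20, adjusted p = 0.0690). Both passed when 1 library was left out, Dnaja1 without Padi6-mutant 6 (adjusted p = 0.0178) and Dnajb1 without Padi6-mutant 2 (adjusted p = 0.0409). Dnajb2 fell (log2 fold change -0.94, SE 0.33, adjusted p = 0.0355) from 8.75 to 10.34 (median 9.76) to 6.79 to 9.61 (median 8.84), a call lost without Control 1, 2, 3, 6 or 7 or Padi6-mutant 4, 9 or 10 (adjusted p up to 0.0687) and without the 4 libraries (-0.75, adjusted p = 0.106). Dnajb3 was at 0.00 to 6.43 (median 4.59) and at 2.58 to 8.08 (median 7.10), with 1 Control embryo at 0, and passed narrowly (log2 fold change 2.26, SE 0.83, adjusted p = 0.0471). It lost the call when any library other than Control 1, 6 or 9 or Padi6-mutant 2 or 7 was left out (adjusted p up to 0.0828), without the 4 libraries (1.45, adjusted p = 0.351) and with the length and GC trend removed (1.80, adjusted p = 0.127).

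Class C J-proteins, each tied to a special task, held 8 of the 13 rises. Of all 27 class C genes over all compartments, 8 rose and 2 fell, with a median of 0.38, beside 14.6% of all genes higher and 12% lower. With the length and GC trend removed 6 rose and 2 fell, where 10.6% and 10.2% of all genes passed, and with detected genes as a covariate 4 rose and 0 fell by limma (11 with an unadjusted p under 0.05), where 9.23% and 3.52% passed. Dnajc24, a factor of diphthamide synthesis on elongation factor EF2, was at 7.86 to 10.84 (median 9.19) in Control and at 9.80 to 11.82 (median 10.85) in Padi6-mutant embryos and rose (log2 fold change 1.29, SE 0.34, adjusted p = 0.00677). Dnajc9, which brings histones H3 and H4 to chromatin, was at 8.88 to 10.88 (median 10.57) and at 10.64 to 11.63 (median 11.13) and rose (log2 fold change 0.82, SE 0.21, adjusted p = 0.00648), with 8 of 9 Padi6-mutant embryos above the highest Control embryo. Dnajc2, a J-protein that sits on the ribosome, was at 11.74 to 13.32 (median 12.18) and at 12.70 to 13.97 (median 13.07) and rose (log2 fold change 0.74, SE 0.21, adjusted p = 0.0118), although only 1 Padi6-mutant embryo lay above the Control range. Dnajc8, a nuclear J-protein found with splicing factors, was at 11.10 to 12.71 (median 12.23) and at 12.25 to 13.42 (median 12.79) and rose (log2 fold change 0.67, SE 0.19, adjusted p = 0.0119), a call lost with the length and GC trend removed (0.34, adjusted p = 0.0644). Without the 4 libraries Dnajc9 did not pass (0.64, adjusted p = 0.0988), while Dnajc24, Dnajc2 and Dnajc8 did.

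Among the small heat shock proteins, which hold unfolded proteins without ATP, 1 of 4 rose, beside 14.6% of all genes. Hspb2, known from muscle, was at 6.34 to 8.09 (median 7.02) in Control and at 7.95 to 10.33 (median 9.07) in Padi6-mutant embryos. It rose 3.94-fold (log2 fold change 1.98, SE 0.34, adjusted p = 1.53e-04), with 8 of 9 Padi6-mutant embryos above the highest Control embryo, and was 1.21 with the length and GC trend removed (adjusted p = 0.00839). Its exons share 252 of 834 bases with Cryab on the opposite strand, so the 2 cannot be told apart in that stretch. Hspb1, the heat-induced Hsp27, was at 7.33 to 11.38 (median 9.04) in Control and at 8.14 to 12.48 (median 11.08) in Padi6-mutant embryos and did not pass (1.17, adjusted p = 0.108). It passed without Padi6-mutant 2, the lowest of its group (adjusted p = 0.0352).

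On the deposited values the chaperonin CCT stood close to Control. CCT is a ring of 8 kinds of subunit that folds actin and tubulin, and 7 of them, with the second form Cct6b, are among the 70 genes. By limma 1 of these 8 genes fell and 0 rose (3 at an unadjusted p under 0.05), beside 12% of all genes lower and 14.6% higher. Of the 8 fold changes 7 were negative, with a median of -0.20 beside -0.10 over all genes. Cct3 was at 14.33 to 15.28 (median 14.95) in Control and at 13.99 to 14.69 (median 14.53) in Padi6-mutant embryos and fell (log2 fold change -0.53, SE 0.15, adjusted p = 0.0110), and it did not pass without the 4 libraries (-0.41, adjusted p = 0.124). Cct8 was at 14.58 to 15.21 (median 14.94) and at 13.88 to 14.89 (median 14.62), just short of the threshold (log2 fold change -0.40, SE 0.15, adjusted p = 0.0512), and passed without Control 5, Control 8 or Padi6-mutant 2, 3 or 6 (adjusted p from 0.0346). Cct7 was at 14.23 to 15.57 (median 14.90) and at 13.86 to 14.99 (median 14.47) (log2 fold change -0.45, SE 0.19, adjusted p = 0.0780) and passed without Control 8 or Padi6-mutant 3 (adjusted p from 0.0394).

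The other CCT genes did not pass, and their groups overlapped. Cct2 ranged over 13.95 to 14.61 (median 14.32) and 14.00 to 14.64 (median 14.36), a difference of -0.0038 (SE 0.13). Cct5 ranged over 14.88 to 15.43 (median 15.17) and 14.80 to 15.34 (median 15.10) (-0.075, SE 0.12), and Cct4 over 15.03 to 15.85 (median 15.34) and 15.00 to 15.48 (median 15.25) (-0.17, SE 0.13). Cct6a, the steadiest of the 70 genes among Control embryos (SD 0.13), ranged over 14.81 to 15.23 (median 15.00) and 14.38 to 15.19 (median 14.93) (-0.23, SE 0.13). Of 9 Padi6-mutant embryos, 4 lay below the lowest Control embryo in Cct6a. In Cct4 8 lay below the Control median, and in Cct6b 8 lay above it. Cct6b, a form known from testis, was less abundant at 9.71 to 11.68 (median 10.22) and at 9.48 to 11.44 (median 10.96) (0.32, SE 0.27). The scaling decides this family's count. With quantile normalization 6 of the 8 fell, beside 13.7% of all genes lower, with a median of -0.68 beside -0.12 over all genes. In limma with detected genes as a covariate or without the 4 libraries 0 of 8 passed (1 at an unadjusted p under 0.05 in each).

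Prefoldin, which hands unfolded actin and tubulin to CCT, gave calls in 1 direction. Of its 6 subunit genes 5 rose and 0 fell, with a median of 1.88, beside 14.6% of all genes higher. These genes are not among the 70 and were fixed by name as partners, with earlier results of these data known. Pfdn6 was at 8.15 to 11.00 (median 9.57) in Control and at 11.20 to 12.39 (median 11.57) in Padi6-mutant embryos, with no overlap (log2 fold change 1.91, SE 0.30, adjusted p = 6.20e-05), and Pfdn1 was at 9.36 to 11.93 (median 10.53) and at 11.89 to 13.16 (median 12.69) (log2 fold change 1.96, SE 0.28, adjusted p = 1.49e-05). Their transcripts are short, and with the length and GC trend removed 4 of 6 remained higher, with a median of 1.27, and Pfdn6 (481 nt) was at 0.50 (adjusted p = 0.0582). Tcp1, the remaining CCT subunit, did not pass (-0.11, adjusted p = 0.556).

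Cochaperones of cytosolic Hsp90 and Hsp70 moved both ways. Of all 24 cytosolic partner genes 7 rose and 3 fell, the 5 prefoldin genes included, beside 14.6% and 12% of all genes; the other five were named after their values were seen. In limma without the 4 libraries 6 rose and 0 fell (8 with an unadjusted p under 0.05), and with detected genes as a covariate 5 rose and 0 fell (6). Ptges3, the p23 cochaperone that closes Hsp90, was at 13.34 to 14.59 (median 14.19) in Control and at 14.48 to 16.08 (median 14.80) in Padi6-mutant embryos and rose (log2 fold change 0.75, SE 0.20, adjusted p = 0.00806), and St13, which holds Hsp70 on its client, rose as well (log2 fold change 0.48, SE 0.15, adjusted p = 0.0218). Fkbp4, an Hsp90 partner of steroid receptors, was at 13.97 to 16.11 (median 14.76) and at 13.45 to 14.96 (median 14.02) and fell (log2 fold change -0.82, SE 0.26, adjusted p = 0.0223). Cdc37, which brings kinases to Hsp90, fell (log2 fold change -0.60, SE 0.20, adjusted p = 0.0293), a call lost without Control 1, 2, 3 or 6 or Padi6-mutant 8 (adjusted p up to 0.0591) and without the 4 libraries (-0.45, adjusted p = 0.221). Stip1, which links Hsp70 to Hsp90, fell (log2 fold change -0.52, SE 0.19, adjusted p = 0.0490), a call lost when any library other than Control 8 or 9 or Padi6-mutant 3, 5 or 6 was left out (adjusted p up to 0.0985) and without the 4 libraries (-0.54, adjusted p = 0.0919). With the length and GC trend removed Ptges3, St13 and Fkbp4 still passed, Cdc37 and Stip1 did not, and without the 4 libraries Ptges3 did (0.62, adjusted p = 0.0395) while St13 (adjusted p = 0.205) and Fkbp4 (adjusted p = 0.226) did not.

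**Figure D4:**
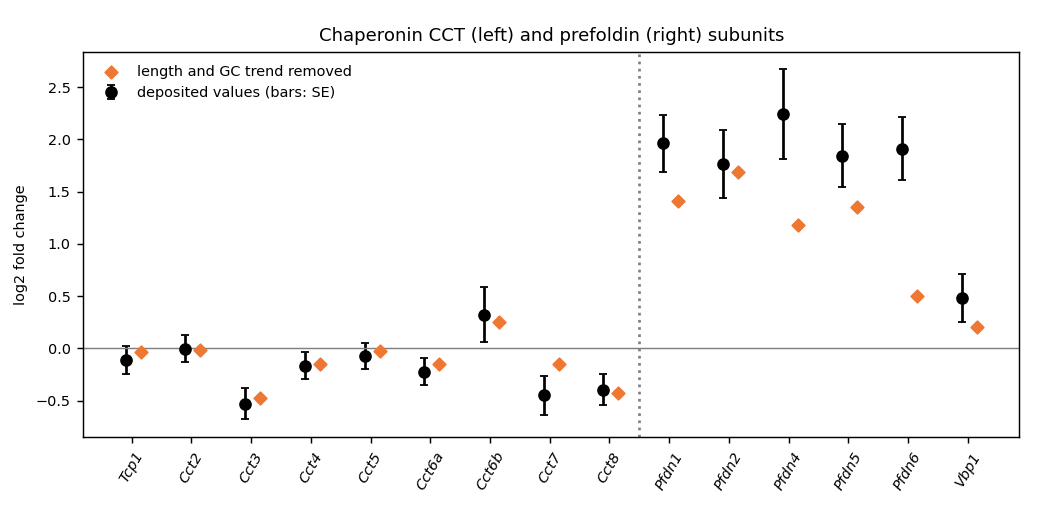
Log2 fold change (y axis) of the CCT subunit genes, left of the dotted line, and of the prefoldin subunit genes, right of it (x axis). Black points are limma estimates on the deposited values with standard errors, and orange diamonds are estimates with the length and GC trend removed; the CCT genes stay between -0.53 and 0.32, and the prefoldin genes reach 2.24.

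The ER chaperones showed no rise that passed. Hspa5 encodes BiP, the Hsp70 of the ER and a main target of the unfolded protein response. It was at 13.52 to 14.76 (median 14.59) in Control and at 13.48 to 14.95 (median 14.58) in Padi6-mutant embryos, with groups that overlapped almost wholly (log2 fold change -0.076, SE 0.19, adjusted p = 0.802). Hsp90b1, the Hsp90 of the ER, was at 13.50 to 14.77 (median 13.96) and at 14.04 to 14.93 (median 14.31) (log2 fold change 0.40, SE 0.17, adjusted p = 0.0876). All 9 Padi6-mutant embryos lay above its Control median, and it passed without Control 5 (adjusted p = 0.0258) and with the length and GC trend removed (0.41, adjusted p = 0.0451). The lumenal J-proteins that respond to the same pathway did not pass: Dnajb9 was at 9.20 to 11.06 (median 10.28) and at 10.20 to 11.89 (median 10.53) (0.41, adjusted p = 0.237), Dnajb11 at 10.96 to 11.91 (median 11.60) and at 10.92 to 12.17 (median 11.25) (-0.14, adjusted p = 0.583). Dnajc3 was at 9.71 to 11.41 (median 10.92) and at 10.59 to 11.75 (median 11.43), with 5 of 9 Padi6-mutant embryos above the Control range, and missed the threshold (0.43, adjusted p = 0.114).

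The 3 ER genes that fell were Dnajc10, Dnajc14 and Hspa13. Dnajc10, a J-protein that reduces disulfides in the lumen, was at 10.93 to 12.32 (median 11.60) in Control and at 10.43 to 11.41 (median 11.02) in Padi6-mutant embryos (log2 fold change -0.59, SE 0.18, adjusted p = 0.0204). Dnajc14, a J-protein of the ER membrane, was at 10.17 to 11.43 (median 11.09) and at 10.05 to 10.92 (median 10.21) (log2 fold change -0.63, SE 0.18, adjusted p = 0.0147), and its exons share 1114 bases with Ormdl2 on the opposite strand. Hspa13, an Hsp70 without a substrate domain, was at 7.91 to 9.99 (median 9.32) and at 6.87 to 9.45 (median 8.01) (log2 fold change -1.04, SE 0.35, adjusted p = 0.0323), a call lost without Control 1, 3, 7 or 8 or Padi6-mutant 3, 4 or 7 (adjusted p up to 0.0640). Without the 4 libraries Dnajc10 did not pass (-0.54, adjusted p = 0.0928), and with the length and GC trend removed Dnajc14 did not (-0.36, adjusted p = 0.138). Of 10 other ER folding genes fixed by name 1 rose and 1 fell, beside 14.6% and 12% of all genes. Sdf2l1 rose (log2 fold change 0.83, SE 0.30, adjusted p = 0.0462) and Pdia4 fell (log2 fold change -0.46, SE 0.15, adjusted p = 0.0291). The first call was lost when any library other than Control 5, 7 or 10 or Padi6-mutant 7, 9 or 10 was left out (adjusted p up to 0.0902), and the second without Control 1, 2 or 3 or Padi6-mutant 2 or 6 (adjusted p up to 0.0606). Neither passed without the 4 libraries (Sdf2l1 0.95, adjusted p = 0.0813, and Pdia4 -0.45, adjusted p = 0.107) or with the length and GC trend removed (adjusted p = 0.196 and 0.0565). Sil1, an exchange factor of BiP, did not pass (0.71, adjusted p = 0.0743). It passed without Control 1 (limma adjusted p = 0.0403) and, alone of the 10, with the trend removed (0.89, adjusted p = 0.0164). Of the sensors, Eif2ak3 (PERK) fell (log2 fold change -0.61, SE 0.22, adjusted p = 0.0408). That call was kept only when Control 5, 6, 7, 9 or 10 or Padi6-mutant 6, 7 or 10 was the library left out (adjusted p otherwise up to 0.0796). It was lost with the trend removed (-0.33, adjusted p = 0.225). The sensors Atf6 (-0.38, adjusted p = 0.108) and Ern1 (-0.12, adjusted p = 0.811) did not pass. Xbp1, a transcription factor of the same response, did not pass either (0.30, adjusted p = 0.213). Atf6 passed without Control 9 (limma adjusted p = 0.0395), and Xbp1 with the trend removed (0.52, adjusted p = 0.0188).

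The promoters of the 2 main ER chaperones are shown because the element that the unfolded protein response uses stands in both. It was searched on both strands as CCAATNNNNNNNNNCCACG in the 250 bases before the start site, and was found in Hspa5, Hsp90b1 and Dnajc3, 3 of the 55 genes, and in 22 of the 9575 (0.23%). None of these 3 windows held TTCNNGAA or GAANNTTC, so the 2 kinds of element did not overlap there. Capitals mark the matches, 1 in Hspa5 at -65 to -47, and in Hsp90b1 1 at -212 to -194 and 1 on the other strand at -107 to -89 (RefSeq, GRCm38.p6, strand of the gene).
Hspa5, chr2:34771840-34772089, + strand: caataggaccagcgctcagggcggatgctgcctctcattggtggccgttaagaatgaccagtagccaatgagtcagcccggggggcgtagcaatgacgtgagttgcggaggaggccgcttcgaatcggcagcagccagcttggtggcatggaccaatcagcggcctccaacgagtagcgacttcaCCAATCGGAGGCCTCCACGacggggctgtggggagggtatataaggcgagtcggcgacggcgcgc
Hsp90b1, chr10:86705445-86705694, - strand: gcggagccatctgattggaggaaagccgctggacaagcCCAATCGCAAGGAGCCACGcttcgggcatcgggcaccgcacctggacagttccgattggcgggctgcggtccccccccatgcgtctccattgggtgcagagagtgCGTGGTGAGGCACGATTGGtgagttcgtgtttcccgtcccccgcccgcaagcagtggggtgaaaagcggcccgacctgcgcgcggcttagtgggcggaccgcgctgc
None of the 3 genes with this element passed the test, and a match in the letters is a description, not evidence of binding.

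Pairs of related chaperones in different compartments were set against each other within embryos. Hspa8 exceeded Hspa5 by 2.09 to 2.98 (median 2.73) in Control and by 1.45 to 2.83 (median 2.07) in Padi6-mutant embryos, and the mean fell by 0.61 (exact permutation, adjusted p = 0.0103 over 7 pairs), with 8 of 9 below the Control median. Without the 4 libraries the difference was -0.43 (adjusted p = 0.114). The matrix J-protein gained on the cytosolic one: Dnaja1 exceeded Dnaja3 by 3.08 to 4.54 (median 3.90) in Control and by 2.16 to 4.16 (median 3.07) in Padi6-mutant embryos, a change of -0.81 (adjusted p = 0.0180; -0.71 and 0.105 without the 4 libraries). Hspa8 against Hspa9 changed by -0.29 (adjusted p = 0.142), Hspa5 against Hspa9 by 0.32 (adjusted p = 0.126) and Hsp90ab1 against Hsp90b1 by -0.093 (adjusted p = 0.739), and none of these passed with all libraries. Hspa8 against Hspa9 passed without Padi6-mutant 3 (-0.39, adjusted p = 0.0390), and Hspa5 against Hspa9 without Padi6-mutant 2 (0.40, adjusted p = 0.0486).

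Whether partners vary together from embryo to embryo was asked for 3 pairs within each group, 6 relations in all, and none passed (permutation tests, two-sided, adjusted over the 6). Hspd1 with Hspe1 gave r = -0.60 and rho = -0.37 over 10 Control embryos (permutation p = 0.0779 and 0.295, adjusted p = 0.205 and 0.354), and r = -0.52 without the 2 embryos farthest from the median of Hspd1. Over 9 Padi6-mutant embryos it gave r = 0.27 and rho = 0.017 (permutation p = 0.470 and 0.982, adjusted p = 0.548 and 0.982), and r = 0.61 without 2. The products of this pair work as 1 machine, but at this number of embryos no relation of their transcripts was detectable.

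Hspa5 with Hsp90b1 gave r = -0.20 and rho = -0.43 in Control embryos (permutation p = 0.548 and 0.216, adjusted p = 0.548 and 0.354), and r = -0.47 without 2. In Padi6-mutant embryos it gave r = 0.56 and rho = 0.50 (permutation p = 0.103 and 0.178, adjusted p = 0.205 and 0.354), and r = 0.66 without 2. Hspa5 with Dnajb11, its J-protein, gave r = 0.65 and rho = 0.50 in Control embryos (permutation p = 0.0541 and 0.142, adjusted p = 0.205 and 0.354), which rested on 2 embryos, since r was 0.23 without them. In Padi6-mutant embryos it gave r = 0.48 and rho = 0.43 (permutation p = 0.165 and 0.250, adjusted p = 0.248 and 0.354), and r = 0.66 without 2.

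Transcript length moved with the fold changes of the chaperones as it did with those of all genes. Across the 69 chaperone genes with a length, Spearman's rho between length and log2 fold change was -0.32, beside -0.36 over 13357 genes, as a description across genes, which are not independent replicates. Of 6 chaperone genes under 1000 nt, 4 rose and 0 fell by limma (Hspe1, Dnajc19, Dnajc4 and Hspb2), where 49.1% of all genes of that length rose and 1.72% fell. Between 1000 and 2000 nt 4 of 22 rose and 2 fell (15.8% and 6.33% of all genes), between 2000 and 4000 nt 2 of 27 rose and 6 fell (6.70% and 15.3%), and from 4000 nt 2 of 14 rose and 3 fell (2.92% and 19.8%). With the trend on length and GC removed, 12 of the 69 were higher and 9 lower, where 10.6% and 10.2% of all genes passed, and rho over the chaperones was -0.15. Of the 12, 9 had been higher before; Dnaja3, Hsp90ab1 and Hsp90b1 were added, and Dnajb3, Dnajc4 and Dnajc8 were lost. Of the 9 lower genes 8 had been lower before, Dnajc5 was added, and Dnajc14, Hspa4 and Hspa9 were lost. Dnajc5 was at -0.082 on the deposited values (limma adjusted p = 0.725) and at -0.81 after this step (adjusted p = 0.00534). The step took its length as 934 nt, while its coding transcripts run from 609 to 6578 nt, so this call rests on the transcript chosen.

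**Figure D5:**
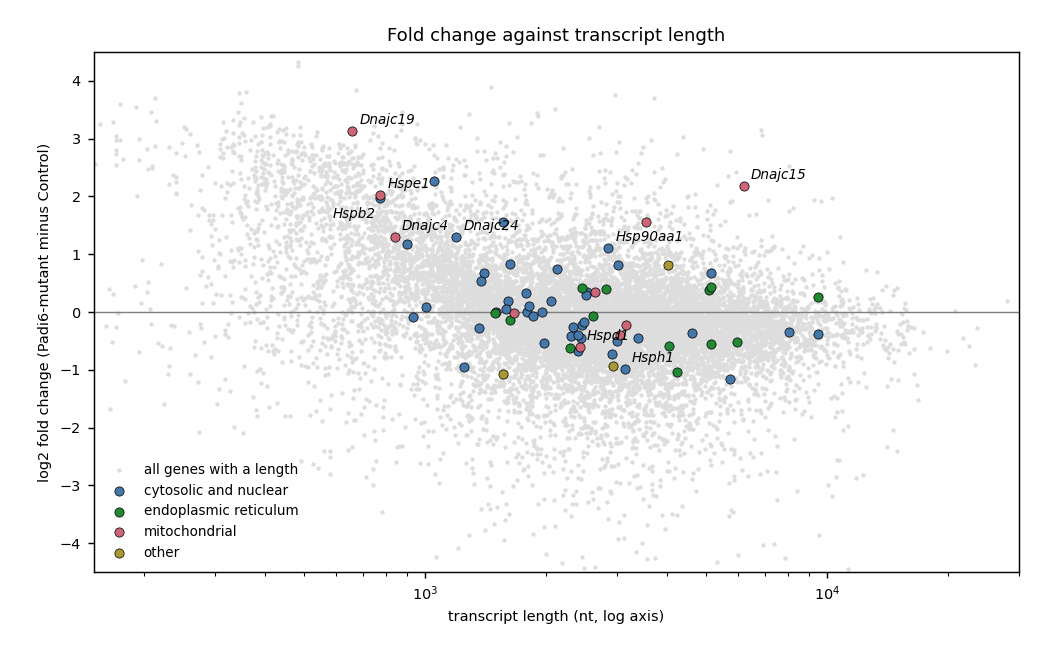
Log2 fold change (y axis) against transcript length (x axis, log scale) for the 69 chaperone genes with a length, coloured by compartment, over all 13357 listed genes with a length in grey. A few grey points lie outside the axes. Dnajc15 at 6193 nt and 2.17 stands apart from the long genes around it, while Dnajc19, Hspe1, Hspb2 and Dnajc4 lie within the cloud of short genes that rose.

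Of the genes with no compartment, Dnajc25, a membrane J-protein, was at 8.46 to 9.92 (median 9.45) in Control and at 9.73 to 10.97 (median 10.08) in Padi6-mutant embryos and rose (log2 fold change 0.81, SE 0.21, adjusted p = 0.00675), and its exons share 348 bases with the read-through model Gm20503. The pseudogenes Hspd1-ps3 (-0.47, adjusted p = 0.155) and Dnajb6-ps (0.55, adjusted p = 0.209) did not pass.

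The remaining 30 chaperone genes, Hspb1 among them, were not chosen by name for full description and did not pass in limma. The log2 fold changes of these 30 ran from -1.16 to 1.56, with adjusted p from 0.108 to 0.989. Their Control means ran from 4.24 (Dnajc5g) to 13.83 (Dnajb6), and 6 of them stood at 0 in at least 1 library. Dnajc5g was at 0.00 to 7.21 (median 4.45) in Control and at 0.00 to 7.80 (median 6.86) in Padi6-mutant embryos. Dnajc28 was at 0.00 to 8.01 (median 5.11) and at 4.32 to 8.33 (median 6.74), and Dnajb7 at 0.00 to 7.97 (median 5.82) and at 4.32 to 6.94 (median 5.52). In each of these the groups overlapped over most of their range. Hspb6 was at 0.00 to 8.55 (median 7.18) and at 3.70 to 7.38 (median 5.95), with the widest spread among Control embryos of all 70 genes (SD 2.95). Hspa12a was at 5.13 to 8.63 (median 6.87) and at 0.00 to 8.42 (median 5.61), and Dnajc22 at 3.00 to 9.41 (median 6.73) and at 0.00 to 8.38 (median 6.15), again with overlapping groups. Dnajc16 passed when Control 5 was left out (adjusted p = 0.0494), and was at -0.52 with all libraries (adjusted p = 0.118).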

How the data were processed

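The deposited table holds log2(scaled count + 1) values: off the log scale they are whole numbers to within 1.96e-07, and the authors brought the upper quartile of each library to 1 value. The submitters' processing notes name Trim Galore 0.4.4, HISAT2 2.1.0 and the build GRCm39; the counting tool, annotation and use of strand are not given in the sources used here. The labels speak of 20 pooled libraries and a mean depth of 4.2 M reads; 19 libraries were used. Scaled counts summed to 36.3 to 53.1 M per library, so they are not read depths and the depth of a single library is unknown here. No column belonged to another sample. Oligo-dT priming, template switching and PCR can favour short transcripts, and PCR copies are not independent molecules.

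Groups were compared with limma 3.58.1 (R 4.3.3; lmFit, then eBayes with trend = TRUE, two-sided) over all 14173 genes, with Benjamini-Hochberg adjustment and a threshold of 0.05; no gene was filtered out. Log2 differences of gene pairs within an embryo were compared by exact permutation over all 92378 splits (SciPy 1.17.1), and figures drawn with matplotlib 3.10.9. Transcript lengths came by symbol from GENCODE release M 21 (94.2% of genes, 69 of 70 chaperones), the shortest principal transcript or else the longest. A trend on length and GC content was removed from each library by lowess (span 0.3). Promoter windows are RefSeq's on GRCm38.p6. The limma and trend steps were tested on simulated data with known changes.

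The members, lists and tests were chosen with earlier results of these data known. Described in full were chaperone genes chosen by name (Hsp70, Hsp90, Hsp60, Hsp10, CCT and main J-protein genes) or as up to 3 higher and 3 lower per compartment with the smallest adjusted p, the other members by value where they passed or stood at 0, and up to 3 partner genes per compartment. Of the 70 genes, 1 is in the counts but is not reported here by itself. Planned results with Hspa1a or Hspa1b could not be computed. Alternatives were a pseudocount of 16, quantile normalization, genes above the median level, detected genes as a covariate, the length and GC trend removed, the replicate number as a block, 4 libraries left out, and each library left out in turn.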

Additional observations from a re-analysis of the deposited data

Results flagged for a closer look

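Among 40 genes and 7 within-embryo differences, each looked at in both groups (94 groups of 9 or 10 embryos), 8 had a single embryo whose gap to the next, as a share of the whole range, passed Dixon's limit; chance flags about 1 in 20 groups. Padi6-mutant 6 stood alone 3 times: it was highest in Dnajc2 (13.97, next 13.26) and in the ER J-protein Dnajb9 (11.89, next 10.96), and lowest in Dnajc4 (8.51, next 9.53). Control 9 was lowest in Hspa5 (13.52, next 14.27) and in Dnajc3 (9.71, next 10.67), which both carry the ER stress element. Hsp90b1 carries it too, and was at 14.02 in Control 9, above its Control median of 13.96. Control 1 was lowest in Dnajc9 (8.88, next 10.09). Padi6-mutant 9 was lowest in Dnajb2 (6.79, next 8.25), and Padi6-mutant 8 in Cct6b (9.48, next 10.72). Padi6-mutant 6, 8 and 9 are among the 4 libraries with over 400 genes at 0.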

How the results depend on the processing

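Of the counts by limma, the 13 higher chaperones became 6 with detected genes as a covariate. The 11 lower became 6 with the replicate number as a block, 18 with quantile normalization, 3 with the covariate and 5 without the 4 libraries. Cytosolic genes went from 7 higher to 4 with the block and 1 with the covariate, and from 6 lower to 13 with quantile normalization, 2 with the covariate and 2 without the 4 libraries. ER genes went from 0 higher to 1 with the length and GC trend removed, and from 3 lower to 0 with the block (3 of 13 at an unadjusted p under 0.05 in limma) and 0 with the covariate (4 of 13). Mitochondrial genes went from 2 lower to 1 with the block, the covariate, the trend removed or the 4 libraries left out. With 1 library left out, counts ranged from 12 to 14 higher and 7 to 13 lower over all chaperones, 0 to 1 higher in the ER, and 1 to 2 lower in the mitochondria.

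Without the 4 libraries, Hspa8 minus Hspa5 (-0.43, adjusted p = 0.114), Hsp90aa1 minus Hsp90ab1 (0.61, 0.173) and Dnaja1 minus Dnaja3 (-0.71, 0.105) no longer passed, and Hsp90ab1 minus Hsp90b1 turned to 0.22, as it did to 0.090 with the trend removed. With 1 library left out, Hspa8 minus Hspa9 ranged from -0.39 to -0.23, Hspa5 minus Hspa9 from 0.24 to 0.40 and Hsp90ab1 minus Hsp90b1 from -0.23 to 0.023. Genes that turned sign were Hspa5 (0.012 with the trend removed; -0.18 to 0.034 with 1 library left out), Cct2 (0.049 without the 4 libraries; -0.046 to 0.038), Dnajb9 (-0.071 with the covariate), Hsp90ab1 (-0.098 with quantile normalization) and Hsbp1 (-0.11 with the trend removed), of which Hsbp1 alone had passed before. The cause of these changes was not tested. The 13 higher and 11 lower stayed with a pseudocount of 16, where 2145 of all 14173 genes were higher and 1798 lower. Above the median level 9 of 47 chaperones were higher and 10 lower, beside 1242 and 1332 of all 7086 such genes.

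The replicate numbers do not pair the embryos: over 9 shared numbers the correlation of deviations was -0.072 to 0.15, over 0.1 in 1, and 1 number correlated best with its own. With the replicate block 9 chaperones were higher and 6 lower, beside 10.8% and 7.06% of all genes. Hsp90aa1 minus Hsp90ab1 was then 0.71 (adjusted p = 0.0602) and Dnaja1 minus Dnaja3 -0.87 (0.0602). Depth is unknown per library, so low genes such as Dnajb3 carry counting error that could not be sized.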
